A study of Arabidopsis thaliana with 12 samples.

Results

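Seedlings that received the plant hormone abscisic acid (ABA) together with the synthetic compound DFPM were compared with seedlings that received ABA alone. The comparison rests on 6 of the 12 arrays of the series, the 3 titled as ABA with DFPM and the 3 titled as ABA, chosen by these titles and not by any measured value. All arrays carried total RNA of whole Arabidopsis thaliana seedlings of the Col0 ecotype, grown on plates for 12 days and moved to liquid in wells. The ABA group was given 10 µM ABA for 6 h, and the ABA+DFPM group was given 30 µM DFPM 30 min before 10 µM ABA, also for 6 h. A DFPM group (30 µM, no ABA, listed with the same 30 min lead and 6 h) and a solvent control group with diluted DMSO had 3 arrays each. They served to set the effect of the compound with ABA beside its effect without. Whether a group's arrays stem from different cultures is not stated in the labels. The p-values therefore reflect the spread among these samples alone, possibly a technical one, and 3 arrays per group limit the precision of each value. In RNA of whole seedlings, fewer cells of a type and less RNA per cell cannot be told apart.

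ABA accumulates in plants under water shortage. Its receptors, once bound, block a family of protein phosphatases and so free kinases that switch on genes for water stress protection, close stomata and slow growth. DFPM, a furan that carries a dichlorophenyl ring and a piperidine thioamide, is known as a compound that weakens ABA responses and that acts through immune signalling, for which the lipase-like proteins EDS1 and PAD4 are needed. Plant immunity itself starts with receptors at the cell surface that sense microbial molecules, followed by calcium entry, WRKY transcription factors, and enzymes and small proteins that are secreted or that make defence compounds. The array used, ATH1, has a set of probes for each of most Arabidopsis genes, and each value is a log2 level, so that a difference of 1 is a doubling.

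Values ran from 2.14, the floor of the table, to 15.56. Within the groups the arrays numbered 1 and 2 correlated across probe sets at 0.987 to 0.992, and those numbered 3 correlated with them at 0.875 to 0.920, so the third arrays stood apart in all 4 groups. Array medians were 5.38 to 5.54 with ABA and 5.15 to 5.28 with ABA+DFPM. The difference between the 3′ and 5′ ends of the actin control, a sign of RNA quality, was 4.56 to 4.63 with ABA and 4.27 to 4.68 with ABA+DFPM, and for GAPDH it was 1.24 to 1.32 and 1.05 to 1.27. Both shoot and root genes were present: RCA, the activase of the carbon-fixing enzyme Rubisco, read 11.99 to 12.71 in the ABA arrays, and the root hair expansin gene EXPA7 read 6.03 to 6.98. Of 22746 probe sets for genes, 14401 reached log2 4 on at least 3 of the 12 arrays and were tested, and 7705 of them named 1 gene.

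With DFPM given 30 min before ABA, the level of 1814 probe sets, 12.6% of those tested, differed from that with ABA alone at an adjusted p under 0.05. Of these, 956 rose (6.64% of those tested) and 858 fell (5.96%). The groups did not overlap for 5151 probe sets (35.8%). The rule for naming called genes required this, so where it is stated for them below it describes the values and adds no support. The median change was 1.68 among those that rose and -1.46 among those that fell, against -0.09 over all probe sets tested. Rises reached further than falls: 200 probe sets rose by at least 3 on the log2 scale and 74 fell by as much. Within the arrays of number 1, 2 and 3 the median change of the risen probe sets was 1.39, 1.54 and 2.0, and that of the fallen ones was -1.39, -1.40 and -1.63. With the replicate number as a block 4486 probe sets were called, and with numbers 1 and 2 alone 5276, of which 2186 were higher and 3090 lower. Without ABA array 1 or ABA array 2 the count was 945 or 904, the risen ones numbered 504 or 495 and the fallen ones 441 or 409; without ABA+DFPM array 3 there were 599 risen, and without ABA+DFPM array 1 there were 569 fallen. Setting every array to the same median added 0.21 to each change and moved the split from 52.7% to 71.5% higher, or 1470 higher and 585 lower, so changes of that order have no settled direction.

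Among the genes with the largest rises were enzymes of phenolic and sugar-conjugate metabolism and a small antifungal protein. CCOAMT, annotated as a methyltransferase acting on caffeoyl-CoA, a step in the synthesis of lignin and related phenolics, read 3.15, 3.53 and 3.53 on the ABA arrays and 10.02, 9.89 and 11.87 on the ABA+DFPM arrays. The groups lay more than 6 log2 units apart, and the change was 7.19 ± 0.77 (SE, n = 3 per group, adjusted p = 0.000458), or 146-fold. LCR67, the plant defensin PDF1.1, was at or near the floor with ABA (2.14, 2.17 and 3.22) and at 8.70, 8.95 and 10.11 with ABA+DFPM. Its change was 6.74 ± 0.62 (adjusted p = 0.000176).

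The glycosyltransferase gene UGT73D1, whose family attaches sugars to small molecules, went from 4.06, 2.69 and 4.95 to 9.43, 9.66 and 11.75, a change of 6.38 ± 0.77 (adjusted p = 0.000819). BGLU27, a beta-glucosidase gene, went from 2.78, 3.07 and 2.78 to 9.24, 8.92 and 8.81, and was one of the most even rises over the 3 numbers (6.12 ± 0.39, adjusted p = 2.91e-05). AT3G13610, or F6'H1, encodes the hydroxylase that opens the path to scopoletin and other coumarins. It read 3.18, 3.04 and 6.99 with ABA and 8.85, 9.89 and 12.40 with ABA+DFPM, with array 3 the highest in both groups. Its change of 5.98 ± 1.22 (adjusted p = 0.0118) missed the threshold without ABA array 1 or 2, at up to 0.0509. Named by locus alone, AT1G26410, AT4G37290, AT3G09405, AT5G38900 and AT1G57630 completed the 10 largest rises, with changes from 5.53 to 6.67. In 8 of the 10 genes, all but AT5G38900 and AT1G57630, the ABA mean lay between 2.38 and 4.4.

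Rises of genes that were already well expressed with ABA were led by AT3G16530, which read 6.88, 7.27 and 6.88 with ABA and 11.29, 11.17 and 13.19 with ABA+DFPM (4.87 ± 0.47, adjusted p = 0.000232). AT1G26380 changed by 4.83 ± 0.67 and AT1G26420 by 4.03 ± 0.43, and their locus numbers lie close to that of AT1G26410 on chromosome 1. AT3G47540, AT1G67800, AT5G39670 and AT3G54150 changed by 4.76, 4.19, 4.16 and 4.16. The chitinase gene CHI, whose product cuts the chitin of fungal walls, went from 8.84, 8.76 and 11.02 to 13.47, 13.24 and 14.21. No ABA array reached an ABA+DFPM array, and the change was 4.10 ± 1.08 (adjusted p = 0.0351), which missed the threshold without ABA 1 or 2, any ABA+DFPM array, or DFPM 1 or 2 (up to 0.12). AT5G52760 (3.87 ± 0.97) and AT2G15220 (4.04 ± 1.09, a probe set that may detect more than 1 gene) had adjusted p-values of 0.0282 and 0.0385. These were lost without ABA 1, ABA 2 or any ABA+DFPM array, and the second also without DFPM 1 or control 2, at up to 0.107 and 0.129.

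**Figure D1:**
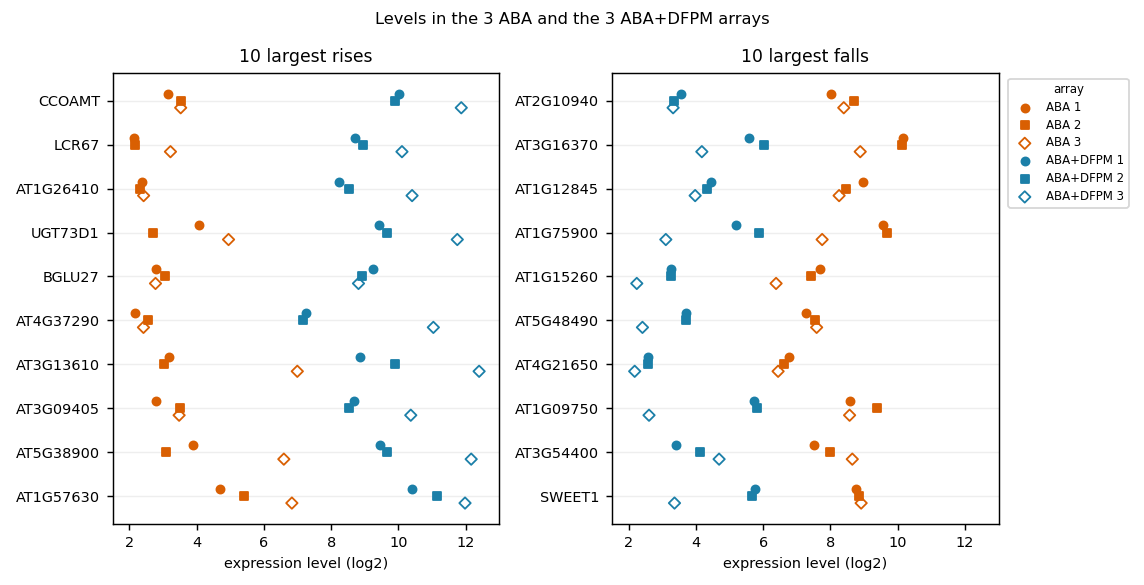
Log2 levels on each of the 3 ABA arrays (orange) and the 3 ABA+DFPM arrays (blue) for the 10 genes with the largest rises (left) and the 10 with the largest falls (right). Circles, squares and open diamonds are the arrays numbered 1, 2 and 3. The groups do not overlap in any of the 20 genes, as the rule for naming them required; CCOAMT spans 3.15 to 11.87 and AT2G10940 spans 8.72 to 3.32.

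The largest fall that met the naming rule was that of AT2G10940, which read 8.03, 8.72 and 8.4 with ABA and 3.56, 3.33 and 3.32 with ABA+DFPM. All ABA+DFPM arrays lay near the floor, and the change was -4.98 ± 0.22 (adjusted p = 8.87e-06). AT3G16370, AT1G12845, AT1G75900, AT1G15260, AT5G48490, AT4G21650, AT1G09750 and AT3G54400 followed with changes from -4.46 to -3.97. The sugar transporter gene SWEET1, whose product lets glucose pass through the plasma membrane, went from 8.75, 8.86 and 8.91 to 5.77, 5.68 and 3.36. Its change of -3.91 ± 0.99 (adjusted p = 0.03) had array 3 far below the other two and was lost without any ABA array or ABA+DFPM 2 or 3 (up to 0.0909). The call of AT1G09750 (-4.13 ± 0.94, adjusted p = 0.0189) was lost without ABA 1 or 2, at up to 0.072.

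Among strongly expressed genes the falls were led by AT1G09310, AT4G30650 and AT4G29020, by 3.63, 3.58 and 3.33 on the log2 scale. AT4G29020 read 10.32, 10.18 and 10.23 with ABA and 6.93, 6.84 and 6.98 with ABA+DFPM, with no array standing apart. AT1G09310 fell from a mean of 14.02 to 10.39 (adjusted p = 0.0199), a call lost without any 1 of the ABA arrays (up to 0.0642). PORB, a protochlorophyllide oxidoreductase that makes the chlorophyll precursor in light, read 9.09, 9.10 and 9.88 with ABA and 6.72, 6.82 and 5.08 with ABA+DFPM, a change of -3.15 ± 0.72 (adjusted p = 0.0194) that was lost without any ABA array or ABA+DFPM 3 (up to 0.0626). AT2G37870, AT1G48750, AT4G12580, AT5G38980 and AT5G62350 changed by -3.21, -3.08, -3.05, -2.84 and -2.75. The call of AT4G12580 (adjusted p = 0.0145) was lost without ABA+DFPM 2, at 0.0509.

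Among the proteins that accumulate in drying or frozen cells, which ABA is known to induce, 4 of 12 tested probe sets fell with DFPM and 0 rose. The median change was -0.90. Lists built from gene symbols and synonyms can miss members that are named by locus alone or unnamed here. List counts are set beside 12.6% called over all probe sets tested. The share called was 33.3% here, 36.4% for sugar carriers, 42.9% for pattern-triggered immunity and 50% for WRKY genes. It was 35.7% for calcium genes, 41.7% for chitinases and defensins, 36.8% for glycosyltransferases and 38.5% for beta-glucosidases. It was 37.5% for tubulins and actins, 29.4% for expansins and xyloglucan enzymes and 33.3% for proteases. COR15A, a chloroplast protein that protects membranes, read 12.42, 12.66 and 12.94 with ABA and 9.44, 9.99 and 8.87 with ABA+DFPM. The change was -3.24 ± 0.36 (adjusted p = 0.000542), or 9.47-fold lower, and the ABA+DFPM mean of 9.43 still lay far above the control mean of 3.07. Its neighbour COR15B fell by 1.68 ± 0.39 (adjusted p = 0.0212), from 8.91, 9.37 and 9.62 to 7.88, 8.26 and 6.73.

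A pair of late embryogenesis abundant (LEA) genes also fell. AtLEA4-1 changed by -1.88 ± 0.38 (adjusted p = 0.0117) and LEA4-5 by -1.18 ± 0.29 (adjusted p = 0.0266), the latter from a mean of 11.60 to 10.42 against 2.31 in control. The dehydrin genes COR47 and LTI30 stayed at the top of the array scale, where COR47 read 14.64 to 14.73 with ABA and 14.33 to 14.76 with ABA+DFPM, and their changes of -0.08 ± 0.24 and -0.24 ± 0.53 did not pass (adjusted p = 0.865 and 0.807). XERICO, a RING-finger gene known to raise ABA content when overexpressed, gave -1.32 ± 0.52 (adjusted p = 0.13; blocked on replicate number, 0.000416). With the block 6 of the 12 were called lower and 1 higher. Leaving out 1 array ended the calls of AtLEA4-1 (ABA 2, 0.0504), COR15B (ABA 2 or 3, up to 0.0709; -1.07 with numbers 1 and 2 alone) and LEA4-5 (ABA 1 or 3, or ABA+DFPM 2, up to 0.0973).

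Sugar carriers fell in the same comparison, 4 of 11 with 0 rising and a median of -1.07. SAG29, the plasma membrane carrier SWEET15 known from ageing leaves and from osmotic stress, read 12.50, 11.83 and 13.32 with ABA and 11, 10.19 and 8.75 with ABA+DFPM. The groups did not overlap, the change was -2.57 ± 0.51 (adjusted p = 0.0109), and both control (2.87) and DFPM (2.74) means lay near the floor. The call was lost with the 6 arrays compared alone (0.0696), and numbers 1 and 2 alone gave -1.57. SWEET4 fell by 1.64 ± 0.36 and SWEET17, a vacuolar fructose carrier, by 1.24 ± 0.28 (adjusted p = 0.0165 and 0.0192). SWEET4 lost its call without ABA 3 (0.0508) and gave -1.0 with numbers 1 and 2 alone, and SWEET17 without ABA 1 or 2 or ABA+DFPM 1 or 3 (up to 0.0777). The block added SWEET11 and TMT2, for 6 lower calls in all.

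Genes of pattern-triggered immunity, which senses conserved microbial molecules, rose or were not called: 3 of 7 tested rose, 0 fell, and the median change was 1.31. WRKY53, a transcription factor of ageing and defence, read 5.15, 4.99 and 7.52 with ABA and 8.85, 8.60 and 8.57 with ABA+DFPM. The groups did not overlap, and ABA array 3 lay closest to the other group (2.79 ± 0.68, adjusted p = 0.0249, lost without ABA 1 or 2 or any ABA+DFPM array, up to 0.0966). The ubiquitin ligase genes PUB24 and PUB23, known to dampen this response, rose by 2.25 ± 0.46 and 2.21 ± 0.44 (adjusted p = 0.0122 and 0.0111). PUB24 read 6.70, 6.67 and 6.86 with ABA and 8.72, 8.51 and 9.75 with ABA+DFPM. Their relative PUB22 gave 1.31 ± 0.46 (adjusted p = 0.0976), the receptor kinase partner gene BIK1 0.85 ± 0.29 (0.0843), WRKY22 0.61 ± 0.71 (0.623) and EFR, the receptor of a bacterial elongation factor, 0.12 ± 0.19 (0.724).

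Of 6 tested WRKY genes 3 rose: WRKY53, WRKY47 (1.39 ± 0.34, adjusted p = 0.0242) and WRKY6 (1.21 ± 0.31, adjusted p = 0.0324). WRKY47 missed the threshold without any ABA array or ABA+DFPM 3 (up to 0.0735), and WRKY6 without any ABA array or ABA+DFPM 1 or 3 (up to 0.115). WRKY6 also missed it with numbers 1 and 2 alone (adjusted p = 0.0552). The remaining members, WRKY20 and ZAP1 beside WRKY22, gave -0.33 and 0.32. From the salicylic acid and EDS1 branch, the search by name found 2 genes, and both were tested. Other genes of this branch may be among the 8730 probe sets unnamed here and were not assessed. GRX480, a glutaredoxin induced by salicylic acid, read 3.91, 3.69 and 5.77 with ABA and 7.35, 7.0 and 10.64 with ABA+DFPM, without overlap (3.87 ± 1.22, adjusted p = 0.066, or 6.7e-05 with the block). SAG101, a partner of EDS1, gave 0.81 ± 0.27 (adjusted p = 0.0783, or 0.0419 with the block). The resistance protein gene CSA1 gave 0.20 ± 0.28 (adjusted p = 0.686). It was the only member of its list found by name, so it does not describe resistance genes as a family.

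Calcium sensors and channels had the highest median of the lists with at least 6 tested members, 1.80, with all 14 tested changes positive and 5 of them called. CML37, a calmodulin-like sensor, read 4.4, 4.27 and 5.27 with ABA and 8.24, 8.11 and 10.12 with ABA+DFPM. All ABA+DFPM arrays lay above all ABA arrays (4.18 ± 0.94, adjusted p = 0.0182), with the call lost without ABA 1 or 2 or ABA+DFPM 3 (up to 0.0666). CML42, another such sensor, rose by 3.07 ± 0.65 (adjusted p = 0.0139) from a mean of 4.26 to 7.33, against 8.56 in control. CML42 missed the threshold with the 6 arrays alone (0.0506) and with the block after numbers 1 and 2 were averaged (0.0608), and numbers 1 and 2 alone gave 2.04.

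The other 3 called members were neighbours in the genome, the glutamate receptor-like channel genes GLR2.7, GLR2.8 and GLR2.9. GLR2.8 was at the floor of 2.14 on all ABA arrays and at 5.85, 5.48 and 5.12 on the ABA+DFPM arrays, a change of 3.35 ± 0.40 measured from that floor (adjusted p = 0.000819). GLR2.9 (2.91 ± 0.78, adjusted p = 0.0363) started from the floor as well, at 2.14 to 2.19. GLR2.7 changed by 2.66 ± 0.54 (adjusted p = 0.0119). GLR2.7 lost its call without ABA 1 (0.0501) and GLR2.9 without any ABA array, ABA+DFPM 1 or 3, or control 1 or 2 (up to 0.103). With the block 8 of the 14 were called higher, and with numbers 1 and 2 alone 10.

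Secreted antifungal proteins moved in both directions. Of 12 tested chitinase and defensin probe sets found by name 2 rose, LCR67 and CHI, and 3 fell. Genes given by locus alone are not in this count, so the split may differ over the whole families. LCR69 fell by 2.14 ± 0.39 (adjusted p = 0.00738) from 12.50, 12.47 and 12.86 to 10.66, 10.82 and 9.95, and PDF2.1 by 1.79 ± 0.33 (adjusted p = 0.00722). LCR68 fell by 1.93 ± 0.54 (adjusted p = 0.0424, lost without any ABA array, ABA+DFPM 1 or 2, DFPM 1 or 2 or control 2, up to 0.129). PDF1.2, a defensin induced by jasmonate, gave 1.26 ± 0.78 (adjusted p = 0.327). With the block the counts were 4 higher and 5 lower.

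Among 4 class III peroxidases, secreted enzymes of the cell wall, 2 rose (50%, against 12.6% over all probe sets tested). PRX52 read 2.74, 2.49 and 5.43 with ABA and 7.40, 7.63 and 9.52 with ABA+DFPM (4.63 ± 0.74, adjusted p = 0.0036). Prx37 went from 3.06, 2.97 and 7.23 to 8.86, 9.01 and 11.82, with array 3 the highest in each group (5.48 ± 1.18, adjusted p = 0.0152, lost without ABA 1 or 2, up to 0.0622). Its ABA+DFPM mean of 9.90 lay next to the control mean of 10.00. The other members, AT5G64120 and AT5G66390, gave 1.97 ± 0.59 (adjusted p = 0.054) and 0.85 ± 0.84 (0.552), and both passed with the block, at 0.000622 and 0.0125.

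Enzymes that attach sugars or glutathione to small molecules came next. Of 38 tested UDP-glycosyltransferases 12 rose and 2 fell, with a median change of 0.59. After UGT73D1 came UGT73C7 (5.19 ± 0.70, adjusted p = 0.00152) and UGT73B4 (4.01 ± 0.77, adjusted p = 0.00898), also of the UGT73 family. The auxin-conjugating enzyme gene IAGLU followed (2.93 ± 0.63, adjusted p = 0.0152, lost without ABA 1 or 2, up to 0.0612). UGT73C7 read 3.93, 3.89 and 5.72 with ABA and 9.25, 9.21 and 10.65 with ABA+DFPM. UGT74B1, the enzyme that adds glucose in glucosinolate synthesis, rose evenly, by 2.15 ± 0.23 (adjusted p = 0.000399). The 2 that fell were UGT78D1, which glycosylates flavonols (-2.12 ± 0.48, adjusted p = 0.0189), and UGT71B1 (-1.34 ± 0.29, adjusted p = 0.0162). UGT78D1 lost its call without ABA 1 or 3 or ABA+DFPM 1 or 2 (up to 0.0656), and UGT71B1 without ABA 3 or ABA+DFPM 3 (up to 0.0547).

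Of 10 tested glutathione transferases, enzymes that join glutathione to reactive or foreign compounds, 2 rose and 0 fell (20% called, against 12.6% over all probe sets tested). Of the 10 changes 3 were positive, and the block called 2 higher and 2 lower. GSTU22 went from 6.25, 6.01 and 7.20 to 9.09, 9.37 and 9.57 (2.86 ± 0.32, adjusted p = 0.000589). GSTU25 went from 2.45, 2.23 and 5.4 to 6.82, 7.39 and 10.07 (4.73 ± 1.22, adjusted p = 0.0317, lost without ABA 1 or 2 or ABA+DFPM 2 or 3, up to 0.116). The groups did not overlap for either gene, and the list's median of -0.30 was set by its other members. Of 11 cytochrome P450s 2 rose (18.2%), CYP71B6 (2.55 ± 0.58) and CYP71B22 (2.07 ± 0.44), at adjusted p = 0.0183 and 0.0142. CYP71B6 lost its call without ABA 1 or 2 or ABA+DFPM 3 (up to 0.0676) and CYP71B22 without ABA 2 (0.0572), and the block gave 4 higher and 1 lower.

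In phenolic synthesis 4 probe sets of 14 named were tested, and CCOAMT and AT3G13610 rose (50%, against 12.6% over all probe sets tested). HCT, an acyltransferase of the lignin path, gave 0.11 ± 0.24, and DFR, an enzyme of anthocyanin synthesis, was at the floor on arrays 1 and 2 of both groups and at 10.28 and 4.95 on the arrays numbered 3. Beta-glucosidases split, with BGLU27 and BGLU46 (2.36 ± 0.58, adjusted p = 0.0266) higher and BGLU24 (-2.07 ± 0.54, adjusted p = 0.034), BGLU44 (-1.90 ± 0.47, adjusted p = 0.0275) and BGLU33 (-1.33 ± 0.36, adjusted p = 0.0364) lower among 13 tested. BGLU46 was lost without ABA+DFPM 1 or 2 (up to 0.0844), BGLU44 without any ABA+DFPM array (up to 0.0713) and BGLU24 without any ABA array, ABA+DFPM 1 or 2, DFPM 2 or control 1 or 2 (up to 0.107). BGLU33 was lost without any ABA array, ABA+DFPM 1 or 2, DFPM 1 or control 2 (up to 0.109).

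Glucosinolates are sulphur-rich defence compounds. Of the 4 tested genes on their list 2 fell (50%, against 12.6% over all probe sets tested). They were AOP1 (-2.42 ± 0.54, adjusted p = 0.0175) and the transporter gene GTR1 (-1.49 ± 0.29, adjusted p = 0.01). AOP1 was lost without ABA 1 or 2 or ABA+DFPM 1 or 3 (up to 0.0674). GTR2 gave -0.23 ± 0.43, and BCAT4, the enzyme of the first step from methionine, was near the floor in both groups. UGT74B1, which also acts in glucosinolate synthesis, was counted with the glycosyltransferases and rose.

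Genes of growth were followed next. Tubulins and actins, the subunits of the cytoskeleton, had 3 falls and 0 rises among 8 tested, with a median of -0.96. TUB5 read 9.01, 9.18 and 8.95 with ABA and 6.39, 6.61 and 6.76 with ABA+DFPM, one of the most even falls (-2.46 ± 0.17, adjusted p = 4e-05). TUB6 fell by 1.30 ± 0.19 (adjusted p = 0.00251) and TUB9 by 0.81 ± 0.18 (adjusted p = 0.0184, lost without ABA 1 or 2 or ABA+DFPM 3, up to 0.0794). With the block 5 of 8 were called lower and 1 higher.

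Of 17 expansins and xyloglucan enzymes, which loosen and remodel the wall, 4 fell and 1 rose. XTH16 went from 8.58, 9.51 and 6.52 to 3.84, 5.11 and 5.19 (-3.49 ± 0.70, adjusted p = 0.011), XTH32 changed by -2.57 ± 0.28 and EXLA2 by -2.48 ± 0.26 (adjusted p = 0.000473 and 0.000399). XTH16 lost its call with the 6 arrays compared alone (0.0561) and with the block after numbers 1 and 2 were averaged (0.073). The fourth was EXPA18, a root hair expansin, at -1.29 ± 0.35 (adjusted p = 0.0374). It was lost without any ABA array, ABA+DFPM 2 or 3, DFPM 1 or 2 or control 2 (up to 0.115), and with numbers 1 and 2 alone (0.0549). The other root hair marker, EXPA7, gave -1.11 ± 0.55 (adjusted p = 0.226, or 0.0155 with the block), so both tested root markers were lower, and their part in other changes was not tested. The guard cell gene FMA, or FAMA, gave -0.01 ± 0.88. XTH29 was the one that rose (2.29 ± 0.66, adjusted p = 0.0471), a call lost without 10 of the 12 arrays in turn, all but DFPM 1 and DFPM 3 (up to 0.136).

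Secreted proteases of the subtilase and aspartyl classes gave 2 falls among the 6 tested that were found by name, SBT1.3 (-3.30 ± 0.53, adjusted p = 0.00354) and ARA12 (-1.86 ± 0.32, adjusted p = 0.00525). The subtilase genes AT4G21650 (-4.16) and AT4G20430 (-0.21, not called) are named by locus and lie outside this count. SBT3.3, known from immune priming, gave 4.4 ± 1.34 and SBT3.5 2.75 ± 0.87 (adjusted p = 0.0594 and 0.068, or 0.00359 and 0.00353 with the block). APA1 gave -0.17 ± 0.26 and SBT4.12 -0.04 ± 0.4, and the median of the 6 turned from -0.11 to 0.10 with arrays set to one median. Of 9 histone and cell cycle genes 1 fell, AUR2, an Aurora kinase of dividing cells (-1.82 ± 0.25, adjusted p = 0.00164), and 0 rose. The share called, 11.1%, lay near the 12.6% over all probe sets tested, and the block called 3 lower and 0 higher.

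Nuclear genes of photosynthesis had the lowest median of the lists with at least 6 tested members, -1.47 over 20, but only 1 fell and 1 rose. The share called was 10%, near the 12.6% over all probe sets tested. NdhL, a subunit of the chloroplast NDH complex, read 7.51, 7.64 and 6.53 with ABA and 4.07, 4.70 and 2.14 with ABA+DFPM (-3.59 ± 1.00, adjusted p = 0.0421). HEMA2, an enzyme at the start of tetrapyrrole synthesis, gave 1.10 ± 0.32 (adjusted p = 0.0483). NdhL was lost without any ABA or ABA+DFPM array or control 1 or 2 (up to 0.13), and HEMA2 without any array but control 1 and 3 (up to 0.145). The arrays numbered 3 carried the largest differences: the list's median was -0.83, -0.72 and -2.65 within numbers 1, 2 and 3, and 17 of the 20 were lower within all 3. RCA, for example, read 12.71, 12.65 and 11.99 with ABA and 11.43, 11.72 and 8.34 with ABA+DFPM (-1.95 ± 0.93, adjusted p = 0.209, or 0.0384 with the block). With the block 11 of the 20 were called lower and 1 higher, and with numbers 1 and 2 alone 15 and 1.

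Chaperones were mixed. ATHSP22.0, a small heat shock protein of the endoplasmic reticulum, read 7.13, 7.35 and 8.3 with ABA and 3.55, 2.85 and 5.25 with ABA+DFPM (-3.71 ± 0.52, adjusted p = 0.00186), against 2.23 in control. Hsp70-2 rose by 2.31 ± 0.41 and ATERDJ3B, a co-chaperone of the endoplasmic reticulum, by 1.76 ± 0.25 (adjusted p = 0.00577 and 0.00214). These were the 3 calls among 15 tested (20%, against 12.6% over all probe sets tested). The list's median of -0.17 turned to 0.04 with arrays set to one median.

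Few hormone genes were found by name. GH3.3, which conjugates auxin to amino acids, rose by 2.84 ± 0.78 (adjusted p = 0.041), from 3.88, 4.24 and 4.25 to 5.62, 6.04 and 9.22, and lost its call without any ABA array, DFPM 1 or 2 or control 1 or 2 (up to 0.12). Numbers 1 and 2 alone gave 1.77 for it. The ethylene gene ETP2 fell by 1.14 ± 0.20 (adjusted p = 0.00601, or 0.0544 with the block after numbers 1 and 2 were averaged), and EIN3, the master factor of that pathway, gave 0.05 ± 0.17. Of the jasmonate genes, MYC3 and MYC4 gave 0.18 and -0.82 and JRG21 3.51 ± 1.53 (adjusted p = 0.17), with JRG21 at 11.76 on ABA+DFPM array 3 and at 6.58 and 6.92 on arrays 1 and 2. Among 22 NAC, MYB, bHLH, bZIP and homeobox factors 3 fell and 0 rose, a share of 13.6%, near the 12.6% over all probe sets tested. The 3 were bZIP58 (-1.47 ± 0.29, adjusted p = 0.0104, or 0.0565 with the 6 arrays alone), PHV (-1.06 ± 0.25, adjusted p = 0.021) and BZIP61 (-1.05 ± 0.22, adjusted p = 0.0126). The list's median of -0.16 turned to 0.05 with arrays set to one median. PHV was lost without ABA 1 or 2 or ABA+DFPM 1 or 3 (up to 0.084) and BZIP61 without ABA 2 (0.0544). The reference genes GAPC2 and PEX4, the latter also known as UBC21, gave -0.52 ± 0.28 and -0.14 ± 0.31, and PEX4 changed sign with arrays set to one median.

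**Figure D2:**
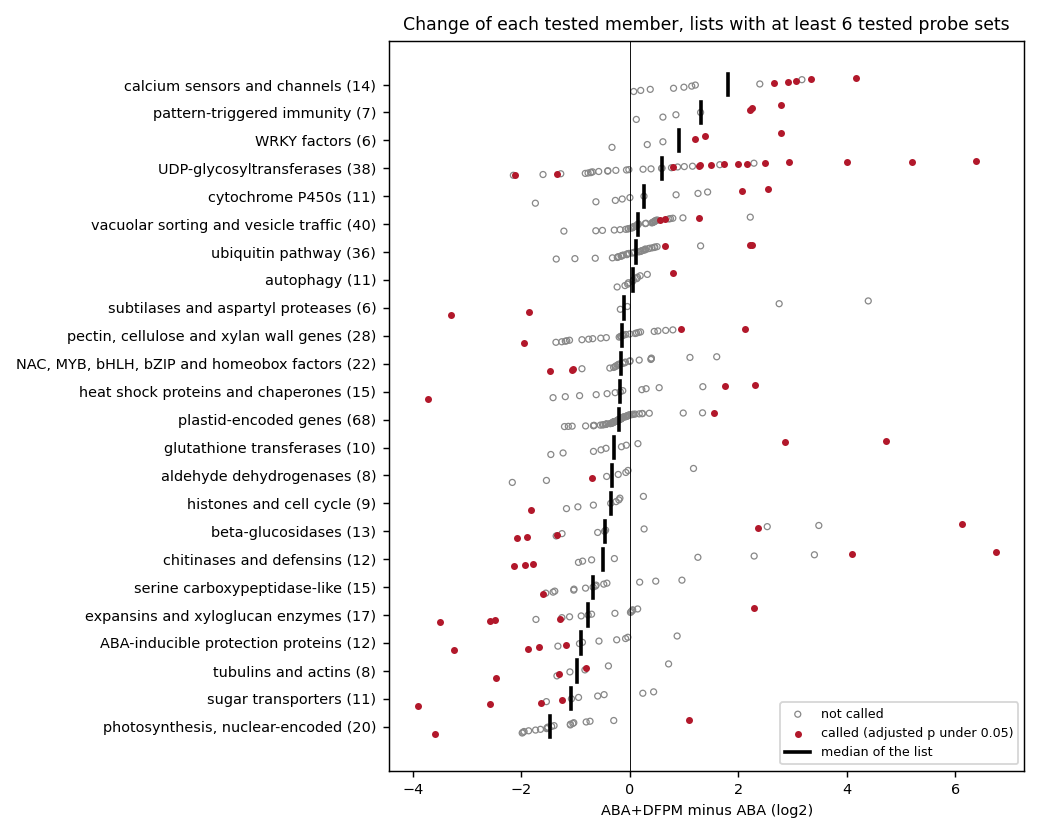
Change with DFPM given before ABA (ABA+DFPM minus ABA, log2) for each tested probe set of the gene lists with at least 6 tested members. The number of members stands in brackets. Red points passed an adjusted p under 0.05, open points did not, and the black bar is the median of the list; calcium sensors and channels lie at the top (1.80) and nuclear photosynthesis genes at the bottom (-1.47).

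The effect of DFPM in the presence of ABA was then set beside its effect without ABA, which is measured on the other 6 arrays. DFPM against control called 3463 probe sets (24% of those tested), 1827 higher (12.7%) and 1636 lower (11.4%), and without control array 2 it called 1981. Of the 956 probe sets that rose with ABA present, 773 (80.9%) also rose without it, which is 42.3% of the 1827. Of the 858 that fell, 594 (69.2%) fell without ABA, or 36.3% of the 1636. None was called in opposite directions in this fit; the counts of opposite calls were 18 with the block, 80 with numbers 1 and 2 alone and 0 to 3 on leaving out 1 array. The shared rises numbered 440 or 419 without ABA 1 or ABA 2, and the shared falls 327, 278, 376, 395 or 382 without ABA 1, 2 or 3, ABA+DFPM 1 or control 2. With each comparison fitted on its own 6 arrays, 454 of 641 rises and 290 of 610 falls were shared. There 1 probe set was called in opposite directions.

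Over all 14401 probe sets the effect with ABA followed that without with a slope through the origin of 0.72, a Pearson r of 0.840 and a Spearman rho of 0.824. Within numbers 1, 2 and 3 the slopes were 0.629, 0.649 and 0.753. These values describe probe sets, which cannot be taken as independent replicates, and both effects share the array design and the replicate numbers. CCOAMT changed by 7.19 with ABA and by 5.4 without, and TUB5 by -2.46 and -2.34. The calcium sensor CML37 gave 4.18 and 4.21, PUB24 2.25 and 2.23, and UGT73C7 5.19 and 5.15. COR15A, AT2G37870 and SAG29 fell with ABA, and without it gave -0.57, 0.03 and -0.12 from control levels near the floor; their tests of the difference gave adjusted p = 0.0641, 0.0907 and 0.32.

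**Figure D3:**
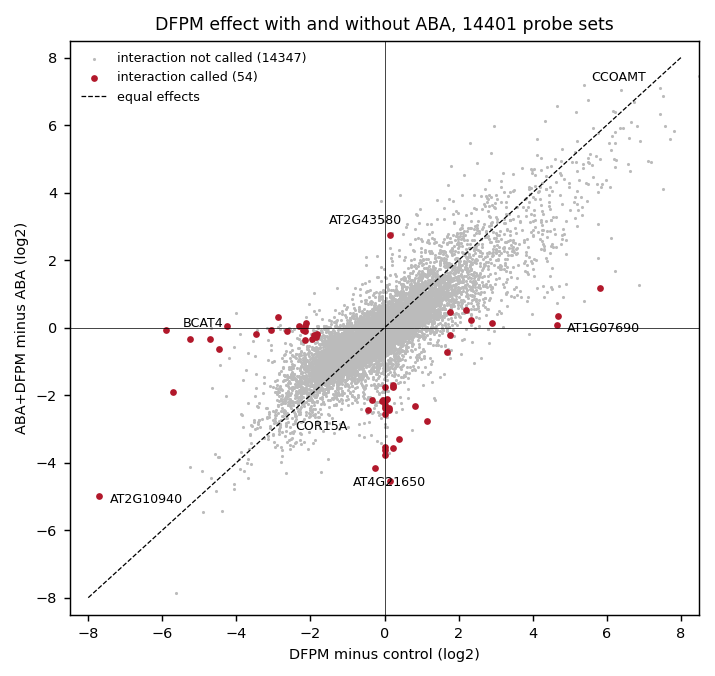
Effect of DFPM without ABA (DFPM minus control, x axis) against its effect with ABA (ABA+DFPM minus ABA, y axis), both in log2, for 14401 probe sets. Red points are the 54 probe sets whose effects differed at an adjusted p under 0.05 and the dashed line marks equal effects; one arm of red points runs down at an x of about 0 and another lies along a y of about 0.

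A test of the difference between both effects called 54 probe sets, 0.375% of those tested, 32 with a lower and 22 with a higher effect in the presence of ABA. Of the 1814 probe sets changed with ABA present, 1788 (98.6%) did not pass it, which does not show that their effects were equal. Of the 32, 23 were lower with ABA+DFPM than with ABA and were not called without ABA. In 22 of these both the control and the DFPM mean lay under log2 4. The other 9 rose with DFPM without ABA and were not called with it. Of the 22, 21 fell with DFPM without ABA, and in 18 of them the effect with ABA was not called and the ABA mean already lay under log2 4. Such probe sets entered the test through the group in which they were high, so their differences of effects are given as a description. The count was 202 with the block and 0 with the block after numbers 1 and 2 were averaged (limma, 924 at an unadjusted p under 0.05). It was 1251 with numbers 1 and 2 alone, 27, 35, 33, 30 or 30 without ABA 1, ABA 2, DFPM 1, DFPM 2 or control 2, and 91 without control 3.

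AT4G21650 showed the first pattern. It read 6.76, 6.61 and 6.44 with ABA and 2.56, 2.59 and 2.18 with ABA+DFPM, next to means of 2.52 in control and 2.26 with DFPM, so the ABA+DFPM arrays lay at the level of the arrays without ABA. The difference of effects was -3.90 ± 0.30 (adjusted p = 0.000526). AT4G21650 passed the filter on low values through the ABA arrays alone, so this difference rests on floor values and is given as a description. AT1G27461, AT5G42290, AT4G34320, AT2G40435 and AT2G21820 also showed the first pattern, with falls of 3.61, 3.56, 3.30, 2.57 and 2.32 on the log2 scale with ABA present. AT2G21820 kept an ABA+DFPM mean of 6.86 against 2.78 in control, while AT1G27461 (2.35) and AT2G40435 (2.17) came down to near the floor. The difference of effects was lost for AT1G27461 without ABA 1, ABA+DFPM 1 or 2, any DFPM array or control 1 or 2 (up to 0.102), and for AT2G21820 without control 2 (0.0509).

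BCAT4 showed the reverse pattern. It had a control mean of 7.51 and read 2.88, 2.27 and 2.32 with ABA and 2.15, 2.14 and 2.15 with ABA+DFPM. DFPM without ABA changed it by -5.26, and both groups with ABA lay near the floor. AT1G14960, AT5G62280, AT1G33170, AT3G21300 and AT4G20430 had control means of 4.37 to 7.35 and ABA means of 2.22 to 4.15. The difference of effects was lost for AT5G62280 without ABA 1 or 2, ABA+DFPM 1, DFPM 1 or 2 or control 2 (up to 0.0607) and for AT4G20430 without ABA 1 (0.0537). For AT3G21300 it was lost without any ABA or DFPM array, ABA+DFPM 1 or 3 or control 2 (up to 0.103). AT2G10940 fell in both settings, by 7.71 from the control mean of 10.94 and by 4.98 from the ABA mean of 8.38, to means of 3.23 and 3.40.

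The last 3 genes followed other courses. AT1G07690 rose from 2.56 to 7.24 with DFPM alone and read 3.10, 2.72 and 2.64 with ABA+DFPM, against 2.43 to 2.55 with ABA. AT5G02230 rose from 5.51 to 8.41 with DFPM, while its ABA mean of 10.90 and its ABA+DFPM mean of 11.05 differed by 0.15 ± 0.33. Its difference of effects (adjusted p = 0.0434) was lost without any array but ABA 3 and ABA+DFPM 2 (up to 0.148). AT2G43580 lay at the floor in control and ABA (both means 2.14 to 2.15) and at 2.29 with DFPM, and it read 4.83, 4.76 and 5.11 with both compounds. It passed the filter on low values through the ABA+DFPM arrays alone, and the other 3 groups give floor values. Its difference of 2.59 ± 0.23 (adjusted p = 0.00115) rests on those floor values and is given as a description. The gene neighbours CHI in the genome.

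**Figure D4:**
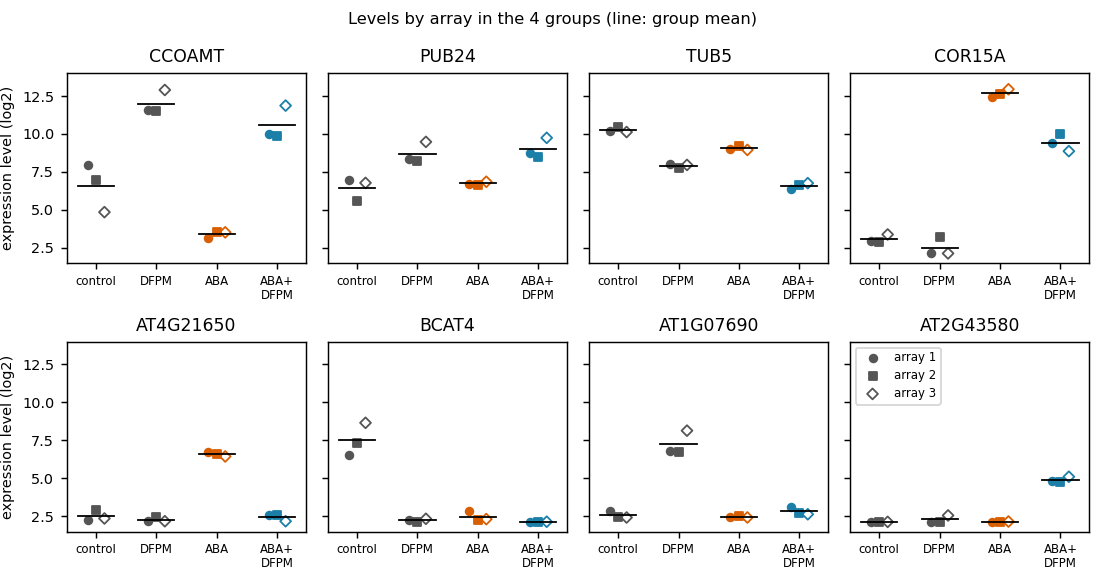
Log2 levels on the 3 arrays of each of the 4 groups for 8 genes, with the group mean as a line and open diamonds for the arrays numbered 3. CCOAMT and PUB24 rise and TUB5 falls with DFPM in both settings, COR15A (12.68 to 9.43) and AT4G21650 (6.60 to 2.44) fall from the level reached with ABA, BCAT4 is high in control alone, AT1G07690 with DFPM alone and AT2G43580 with both compounds.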

How the data were processed

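Deposited log2 expression values per probe set were used; per the submitters' processing notes, which name no version, the authors used GCRMA and affy. The scale was checked on the values (2.14 to 15.56). No genome build is named, and gene names came from the platform table and RefSeq rows of TAIR10.1: of 22746 probe sets for genes in a table of 22810 (64 controls left out), 13513 named 1 gene, 503 several, and 8730 are unnamed here, 6386 of them tested and their genes not analysed here. Probe sets at log2 4 or more on at least 3 of 12 arrays were kept (14401).

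The fit used lmFit and eBayes of limma 3.58.1 under R 4.3.3 on all 12 arrays without a block, two-sided, with Benjamini-Hochberg adjustment over all probe sets tested; the code was tested on simulated data. Errors are SE of the fit, n = 3. No detection calls were used, so a fold from the floor is less certain than its direction. The alternatives were other filters, scalings, variance models and fits, a block on the replicate number, and each array left out; a fit of numbers 1 and 2 alone was added after seeing the data. Replicate numbers recur in the titles of all groups and no label says what they mark. Deviations from group means correlated in all 18 same-numbered pairs (0.426 to 0.802). They also correlated in the 12 pairs of number 1 with 2 (0.380 to 0.701), and ran opposite in the 24 pairs of 3 with 1 or 2 (-0.766 to -0.432). These values set the arrays numbered 3 apart and cannot show that 1 pairs with 1 or 2 with 2. The block takes the numbers to pair the arrays, and the main fit does not.

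Named genes were, among called probe sets of 1 gene with groups that do not overlap, the 10 largest changes each way, the same with both means at log2 6 or more, up to 4 called members of each of 42 lists with uncalled members of small lists, and the 8 largest called differences of effects each way. UGT74B1, UGT78D1, UGT71B1, PDF2.1, PDF1.2, GLR2.7, BGLU33, RCA, XERICO, COR47, LTI30, SWEET11 and TMT2 fall outside it and were chosen after their values were seen. Members and lists were chosen with earlier results of these data known. The search for list members used gene symbols and synonyms. It found no probe set for core ABA signalling, tryptophan and camalexin, aquaporins, cytosolic ribosomal proteins and phloem, which are not analysed here. Berberine bridge enzyme-like, GDSL lipase and lipid transfer genes were likewise not gathered as lists. Members named by locus alone are missed by such a search, so genes given above by locus may belong to these families or to the families of the lists. Counts, medians and shares of the lists leave such genes out. The seed marker was named but not tested.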

Additional observations from a re-analysis of the deposited data

Results flagged for a closer look

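For the 16 named genes below the test of the difference between the effects of DFPM with and without ABA passed in the main fit. None of the 16 passed with the block after numbers 1 and 2 were averaged. Several lay near the floor in at least 1 group, so the values are given as a description. Each value is the effect with ABA minus the effect without, on the log2 scale. The values were below 0 for AT1G07690 (-4.33), AT4G21650 (-3.90), AT5G42290 (-3.80), AT4G34320 (-3.69), AT1G27461 (-3.62), AT2G21820 (-3.14), AT5G02230 (-2.75) and AT2G40435 (-2.57). They were above 0 for BCAT4 (4.91), AT5G62280 (3.19), AT1G14960 (3.02), AT2G10940 (2.73), AT2G43580 (2.59), AT1G33170 (2.35), AT3G21300 (2.15) and AT4G20430 (1.70). Groups of 3 arrays were not searched for single arrays far from the others.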

How the results depend on the processing

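Of 147 named genes 109 were called, 63 of them in each fit that left out 1 array, and no called change changed sign under the alternatives run, while 14 of the 38 uncalled genes did, 5 of them (WRKY22, GTR2, APA1, SBT4.12 and FMA) with numbers 1 and 2 alone and 6 with arrays set to one median. With the replicate block, calls numbered 4486 for ABA+DFPM against ABA (1954 higher, 2532 lower), 6821 for DFPM against control and 202 for the difference of effects, with 1649 shared rises and 1953 shared falls; the block ended none of the 109 calls. The block after averaging numbers 1 and 2 ended 28 of them and the fit of the 6 arrays compared alone ended 38, or 44 by either. With numbers 1 and 2 alone the counts listed for the block were 5276 (2186 and 3090), 7146, 1251, 1748 and 2241. With the averaged block the difference of effects had 0 calls (limma, 924 at an unadjusted p under 0.05), and with the filter at log2 6 it had 21. With arrays set to one median there were 1470 rises, 1173 shared rises and 387 shared falls. With the 6 arrays of each comparison alone, DFPM against control had 2250 calls, and 454 of 641 rises and 290 of 610 falls with ABA present were shared. Leaving out 1 array gave 904 to 2280 calls (495 to 1134 higher, 409 to 1146 lower), 1981 to 4032 for DFPM against control, 27 to 91 for the difference of effects, 419 to 813 shared rises, 278 to 611 shared falls and slopes of 0.580 to 0.788. The cause of these shifts was not tested. Levels near the floor of 2.14 limit what a fall can show: in 201 of the 858 fallen and 162 of the 956 risen probe sets the lower mean was under log2 4.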

Other observations

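Calls in the lists of cell maintenance genes are set here beside the 12.6% called over all probe sets tested. Of 40 tested genes of vacuolar sorting and vesicle traffic 3 rose and 0 fell, with a median change of 0.15: VPS60.1, which acts in sorting into multivesicular bodies (1.27 ± 0.27, adjusted p = 0.0146), AT5G04920 (0.66 ± 0.15, adjusted p = 0.0199) and MAG2 (0.55 ± 0.16, adjusted p = 0.0469). Leaving out 1 array ended the calls of VPS60.1 (ABA+DFPM 2, 0.0518), AT5G04920 (ABA 2 or 3 or ABA+DFPM 3, up to 0.0615) and MAG2 (any ABA or ABA+DFPM array, DFPM 1 or 2, or control 1 or 2, up to 0.129). With the block 12 were called higher and 3 lower. Of 11 autophagy genes 1 rose, ATG8H, whose product coats the autophagosome membrane (0.80 ± 0.18, adjusted p = 0.0169), a call lost without ABA 1 or 2 or ABA+DFPM 1 or 2 (up to 0.0673). The share called was 7.5% of the vesicle traffic genes and 9.09% of the autophagy genes.

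Among 36 ubiquitin pathway genes the 3 that rose were PUB24, PUB23 and the deubiquitinase gene UBP19 (0.65 ± 0.18, adjusted p = 0.0444), which was lost with numbers 1 and 2 alone (0.0528) and without any ABA or ABA+DFPM array, DFPM 1 or 2 or control 1 or 2 (up to 0.129). The block gave 4 higher and 3 lower. Of 68 tested genes encoded in the plastid genome 1 rose and 0 fell. It was rps14, for a plastid ribosomal protein (1.56 ± 0.43, adjusted p = 0.0411, lost without ABA 1 or 3, ABA+DFPM 1 or 2, DFPM 1 or 2 or control 1, up to 0.134), and the median of -0.20 turned to 0.01 with arrays set to one median, and the block gave 3 higher and 3 lower. Of 15 serine carboxypeptidase-like genes 1 fell, scpl25 (-1.60 ± 0.44, adjusted p = 0.0405, lost without ABA 1 or 2, any ABA+DFPM array, DFPM 1 or 2 or control 1, up to 0.137), and the block gave 6 lower. Of 28 genes for pectin, cellulose and xylan of the wall 2 rose, TBL45 (2.13 ± 0.42, adjusted p = 0.0109) and TBL37 (0.94 ± 0.23, adjusted p = 0.0278, lost without any ABA or ABA+DFPM array, up to 0.0972), and 1 fell, GAUT15 (-1.95 ± 0.19, adjusted p = 0.000247). The block gave 3 higher and 6 lower. Of 8 aldehyde dehydrogenases 1 fell, ALDH10A8 (-0.69 ± 0.18, adjusted p = 0.0321, lost without ABA 2 or 3, any ABA+DFPM array or DFPM 1, up to 0.115), and the block gave 1 higher and 3 lower. The share called was 8.33% of the ubiquitin, 1.47% of the plastid-encoded, 6.67% of the carboxypeptidase-like, 10.7% of the wall and 12.5% of the aldehyde dehydrogenase genes.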
